A study of Mus musculus with 4 samples.

Results

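The mitochondrial respiratory chain was examined through the nuclear genes that encode its subunits and some of its assembly factors. Members were all genes whose symbol begins with Nduf, Uqcr, Cox4 to Cox8 or Atp5, or is Sdha, Sdhb, Sdhc or Sdhd, where a probe's accession led to that symbol. This gave 93 genes, measured by 124 probes, out of 20660 genes with a probe on the array. By complex they were 46 genes of complex I, 4 of complex II, 8 of complex III, 18 of complex IV and 17 of complex V. Where a gene had several probes, the one with the highest mean log2 signal stood for it. Of 115 RefSeq symbols that fit the pattern, 22 had no probe by accession here, and 19 of these were pseudogenes; the protein-coding ones were Ndufb1, Ndufb4b and Ndufb4c.

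The cells were mouse EB5 embryonic stem (ES) cells into which a Venus fluorescent reporter of the homeobox gene Hoxb6 had been introduced, differentiated for 6 days on OP9 stromal feeder cells. They were sorted by Venus and by Flk-1, the product of Kdr and a receptor for VEGF. The Flk-1+ Hoxb6-Venus+ fraction (Venus-positive) and the Flk-1+ Hoxb6-Venus- fraction (Venus-negative) were each hybridised to 2 single-colour arrays. All groups therefore share the ES line, the reporter, the feeder and the Flk-1 gate, and the labels name no further genetic change. They do not say whether the replicates came from separate cultures, and the p-values therefore reflect nothing beyond the spread of these arrays, which may be technical. The 4 arrays lay on 1 slide. Row 1 held replicate 1 and row 2 held replicate 2 of each fraction, while the Venus-negative arrays lay in column 2 and the Venus-positive arrays in column 3, so that fraction and slide column cannot be told apart.

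On each array 50.7% to 53.0% of the non-control spots were well above background, and 0 were saturated. Kdr was well above background on all 4 arrays, at log2 signals (relative to the array's 75th percentile) of 5.73 and 5.55 in Venus-negative and 6.06 and 6.09 in Venus-positive cells (adjusted p = 0.140 in limma). Of 9 endothelial marker genes, 3 were called higher in Venus-positive cells and 9 had a positive log2 change (median 1.43), whereas of 7 primitive streak markers 5 were called lower (median -4.91). Among these 5, Mesp1 was well above background on both Venus-negative arrays but on only 1 Venus-positive array. Mesp1 thus passed the filter only through the fraction where it is high, which fixed the direction of its call. Of 11 markers of OP9 stroma, fibroblast and fat, 10 passed the filter and 0 were called in limma (0 higher and 1 lower at an unadjusted p under 0.05), with a median of -0.33. Over all features limma called 0.769% higher and 1.36% lower, and 49.9% had a negative log2 change. At an unadjusted p under 0.05 in limma the shares were 12.2% higher and 11.4% lower.

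The respiratory chain passes electrons from NADH (complex I, NADH dehydrogenase) and succinate (complex II, succinate dehydrogenase) through ubiquinone to complex III, the cytochrome bc1 complex, and on to complex IV, cytochrome c oxidase, which reduces oxygen. The proton gradient so built drives complex V, the ATP synthase. Most nuclear subunits are made in nearly all cells, but several subunits of cytochrome c oxidase exist as alternative isoforms that are restricted to heart and skeletal muscle, lung, testis or cells short of oxygen. Promoters of the widely expressed genes are known for binding sites of the transcription factors NRF1 and GABP.

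Promoter sequences were available for 76 of the 93 members in the RefSeq table (build GRCm38.p6), as windows of 250 bases before to 50 bases after the start. All motifs were searched on both strands. The NRF1 recognition sequence (GCGCA, any 1 base, then GCGC) occurred in 19 of these 76 genes, against 5.19% of 27025 genes in the table and 10.4% of the 11065 genes that were also measured here. The ETS core CCGGAAG, bound by GABP and related factors, occurred in 19 of the 76 members, against 9.93% of all genes and 18.4% of those measured. For ACGTG, the core of the hypoxia-inducible factor (HIF) site, the shares were 23.7%, 21.8% and 28.3%, for CCAAT 44.7%, 41.1% and 42.8%, and for TATAAA 10.5%, 15.7% and 9.47%. A match is a run of letters, not a bound site. The median log2 change between the fractions was -0.11 for the 19 members with the NRF1 sequence and -0.08 for those without it. This split was not particular to NRF1. Members with and without the motif had medians of -0.11 and -0.08 for the ETS core, and -0.10 and -0.08 for ACGTG. For CCAAT they were -0.11 and -0.07, and for TATAAA -0.02 and -0.08. The windows of 4 members are shown, because Cox7a1 and Ndufaf4 were among the 4 members set apart from the rest by their difference between the fractions, Cox7a2 is the widely expressed counterpart of Cox7a1, and Cox6a1 carries the NRF1 sequence and the ETS core together. The 250 bases before the start are given 5′ to 3′ on the gene's strand, with matches to any of the 5 motifs on either strand in capitals; no 2 matches overlap.
Cox7a1, chr7:30183921-30184170, plus strand: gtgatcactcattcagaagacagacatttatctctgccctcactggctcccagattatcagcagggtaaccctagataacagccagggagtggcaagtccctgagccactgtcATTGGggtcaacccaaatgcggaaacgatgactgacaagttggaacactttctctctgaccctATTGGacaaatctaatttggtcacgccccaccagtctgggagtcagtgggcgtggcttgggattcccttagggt
Cox7a2, chr9:79759854-79760103, minus strand: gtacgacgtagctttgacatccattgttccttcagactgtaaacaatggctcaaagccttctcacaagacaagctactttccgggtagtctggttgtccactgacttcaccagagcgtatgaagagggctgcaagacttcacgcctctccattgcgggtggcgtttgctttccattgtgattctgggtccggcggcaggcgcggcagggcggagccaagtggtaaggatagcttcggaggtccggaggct
Ndufaf4, chr4:24897833-24898082, plus strand: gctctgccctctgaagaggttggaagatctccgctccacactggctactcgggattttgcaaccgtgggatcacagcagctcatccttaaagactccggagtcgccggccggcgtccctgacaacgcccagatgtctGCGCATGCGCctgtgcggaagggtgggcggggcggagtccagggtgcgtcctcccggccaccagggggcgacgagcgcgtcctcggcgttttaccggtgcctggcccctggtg
Cox6a1, chr5:115348959-115349208, minus strand: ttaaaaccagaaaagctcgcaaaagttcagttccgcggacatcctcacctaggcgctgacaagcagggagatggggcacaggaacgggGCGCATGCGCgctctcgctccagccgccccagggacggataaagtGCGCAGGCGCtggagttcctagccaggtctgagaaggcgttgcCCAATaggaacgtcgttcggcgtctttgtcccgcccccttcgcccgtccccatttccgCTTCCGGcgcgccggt
The printed Cox7a1 stretch held 2 CCAAT matches, on the minus strand, which begin 137 and 74 bases before the start, and its whole window also holds ACGTG, not within that stretch, and the printed Cox7a2 stretch held 0 matches. The NRF1 sequence began 113 bases before the start in Ndufaf4, and 162 and 117 bases before it in Cox6a1. For Ndufa4l2 and Cox4i2 the table has no entry.

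Most respiratory chain genes differed little between the fractions, and 4 genes stood apart from the other members. Ndufa4l2 and Cox7a1 were lower in Venus-positive cells, while Cox4i2 and Ndufaf4 had negative changes that just missed the adjusted threshold. Counted from the lowest log2 change, Ndufa4l2, Cox4i2, Cox7a1 and Ndufaf4 ranked 222, 864, 1164 and 1455 of 23544 features. The 5th percentile of the log2 change was -0.90 over all features and -0.39 over the members. Decreases of this size were thus no more frequent among the members than among all features. Of the 93 members, 90 were well above background on all 4 arrays and were tested; Cox7b2, Cox8b and Cox8c were not well above background on any array. Because every tested member passed the background filter in both fractions, the filter did not choose a direction. At a threshold of 0.05 on limma's p, adjusted by Benjamini-Hochberg across every feature, the 2 lower members compare with 1.36% of all 23544 features tested, and 0 higher members with 0.769%. At an unadjusted p under 0.05 limma gave 8 lower members (background 11.4%) and 1 higher member (background 12.2%). Both calls sit close to the threshold. With the replicate number as a block Cox7a1 was at 0.0512, and with quantile normalization Ndufa4l2 was at 0.0507. Without any 1 of the 4 arrays limma called 0 features of any kind, so the loss of both calls there says nothing about these genes, whose log2 changes were -2.46 to -1.95 for Ndufa4l2 and -0.96 to -0.86 for Cox7a1. RNA was measured in bulk, so fewer cells of a type and less RNA per cell cannot be told apart.

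Values are log2 processed signals minus the 75th percentile of the array, so that 0 is the level of that percentile and a difference of 1 is a factor of 2. For 83 of the 90 members the log2 change, Venus-positive minus Venus-negative, was under 1.25-fold in either direction, as for 62.4% of all features. The 7 members beyond this were Ndufa4l2, Cox4i2, Cox7a1, Ndufaf4, Cox6b2 and Cox7c, which were lower, and Ndufa8, which was higher. For 77 members the 95% interval of the change lay within 1.5-fold either way, against 39.9% of all features. The members were also measured with less error than most features, with a median SE of 0.10 against 0.14. The part of this precision in the high share was not tested. The middle 50% of the members' changes ran from -0.18 to -0.03, and that of all features from -0.22 to 0.24.

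**Figure D1:**
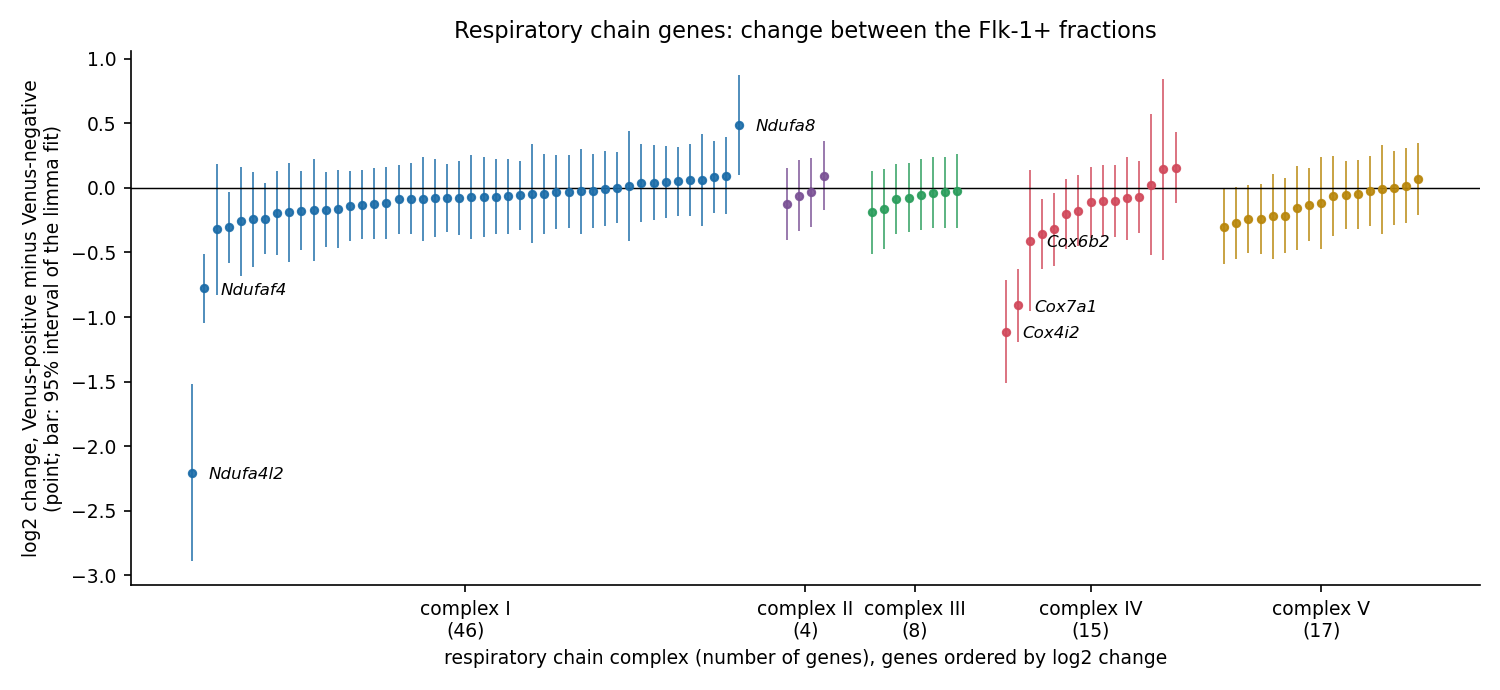
Log2 change between the Flk-1+ fractions for the 90 respiratory chain genes measured, ordered within each complex, with 95% intervals of the limma fit as bars (2 arrays per fraction). Nearly all points lie within 0.5 of 0, and Ndufa4l2 (-2.21), Cox4i2 (-1.11), Cox7a1 (-0.91) and Ndufaf4 (-0.78) lie apart from the rest.

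A small shift ran through the members that are not exceptions. A negative log2 change was found in 73 of 90 members, against 49.9% of all features, with a median of -0.08 against 0.00. Both Venus-positive arrays lay below both Venus-negative arrays for 52 members (background 28.6%) and above them for 8 (background 28.9%). On the arrays, the members' median level was 5.65 and 5.74 in Venus-negative and 5.62 and 5.60 in Venus-positive cells. The fractions do not overlap in this median, although the lower Venus-negative and the higher Venus-positive array lie close together. The sign depends on the scale: with each array centred on its median, all features moved up by 0.07, the members' median was -0.01, and 50 members stayed negative, while 73 were still below the median of all features. Relative to all features the size of the shift also varied. With normexp background correction 59 members lay below the median of all features. With all probes kept, only 24 did, and the members' median of -0.08 lay above that of all features, -0.17. That setting leaves the members' values as they were and adds dim probes to the comparison. It therefore does not bear on the shift relative to features above background.

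**Figure D2:**
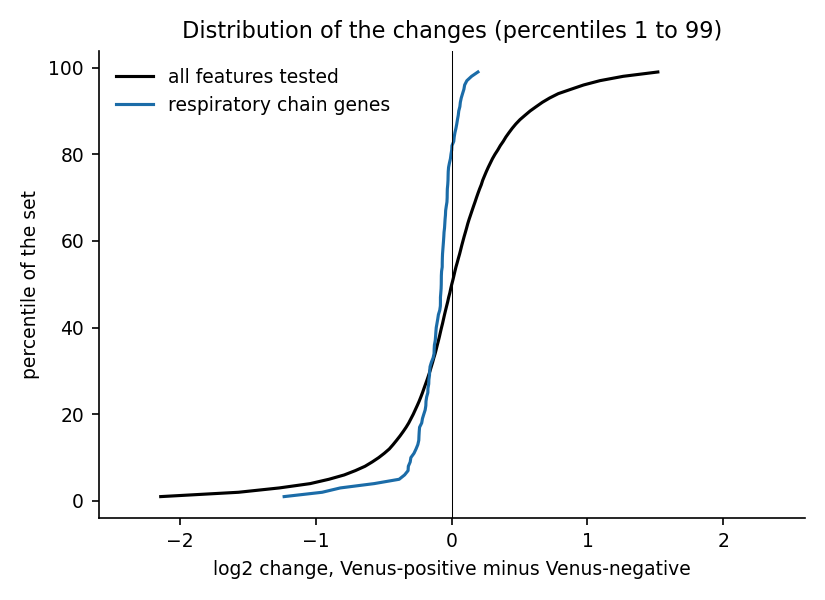
Percentiles 1 to 99 of the log2 change (x axis) for all 23544 features and for the 90 respiratory chain genes (y axis, percentile within the set). The members' curve is steeper and its median lies to the left, with quartiles of -0.18 and -0.03 against -0.22 and 0.24.

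Ndufa4l2 showed the largest difference. It encodes a paralogue of the cytochrome c oxidase subunit Ndufa4 and is known as a gene that HIF-1 induces in cells short of oxygen. Its level was 2.54 and 3.05 in Venus-negative and 0.42 and 0.76 in Venus-positive cells. Both Venus-positive arrays were far below both Venus-negative arrays. The log2 change was -2.21 ± 0.24 SE, a 4.61-fold lower signal (95% interval of the log2 change -2.89 to -1.52), with a limma adjusted p of 0.0489. The difference was -2.11 between the arrays of slide row 1 and -2.30 between those of row 2. Only 1 probe represents this gene.

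Ndufa4, its widely expressed counterpart, has a name given when it was assigned to complex I, although it is now counted among the subunits of complex IV. It stood at 5.11 and 5.17 in Venus-negative and 4.92 and 4.88 in Venus-positive cells. The change of -0.24 ± 0.10 SE did not pass (adjusted p = 0.252). Within the arrays, the log2 ratio of Ndufa4l2 to Ndufa4 changed by -1.93 in row 1 and by -2.01 in row 2.

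Cox4i2 and Cox7a1 were the members of complex IV that stood apart. Cox4i2, an isoform of the regulatory subunit 4 known from lung and from cells short of oxygen, had levels of 0.29 and 0.58 in Venus-negative and -0.70 and -0.65 in Venus-positive cells. All 4 values were well above background, and the fractions did not overlap. The log2 change of -1.11 ± 0.14 SE was a 2.16-fold lower signal and narrowly missed the threshold (adjusted p = 0.0582). Cox4i1, the widely expressed form, varied more between replicates than between fractions, at 7.59 and 7.96 in Venus-negative and 7.66 and 7.95 in Venus-positive cells. Its change was 0.03 ± 0.19 SE, with a 95% interval from -0.52 to 0.58.

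Cox7a1, the heart and skeletal muscle form of subunit 7a, was at 1.54 and 1.55 in Venus-negative and 0.68 and 0.59 in Venus-positive cells. The replicates nearly coincided and the fractions were clearly apart. The log2 change of -0.91 ± 0.10 SE was a 1.88-fold lower signal (adjusted p = 0.0489). Cox7a2, the form found in most tissues, was at 5.25 and 5.32 against 4.99 and 4.94. Its change of -0.32 ± 0.10 SE did not pass (adjusted p = 0.177). The log2 ratio of Cox7a1 to Cox7a2 changed by -0.60 in row 1 and by -0.58 in row 2.

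None of the other tissue-restricted subunits of complex IV passed the test. Cox6a2, the heart and skeletal muscle form of subunit 6a, was at 0.91 and 0.28 in Venus-negative and 0.78 and 0.70 in Venus-positive cells, so that the fractions overlapped. The change of 0.14 ± 0.25 SE carries a wide 95% interval, from -0.55 to 0.84. Cox6b2, known from testis, was at 1.23 and 1.66 in Venus-negative and 0.95 and 1.13 in Venus-positive cells (change -0.41 ± 0.19 SE, adjusted p = 0.2998). Its change was -0.62 without Venus-negative replicate 1 and -0.19 without Venus-negative replicate 2. Cox8b of heart and skeletal muscle and Cox7b2 and Cox8c of testis were the 3 members below the background criterion, with levels between -4.999 and -7.29 on the 4 arrays. Of the 7 tissue-restricted subunits, 4 were therefore measured, with 1 called lower and 3 negative, at a median of -0.66. Over all features 1.36% were called lower and 49.9% were negative. The widely expressed partners Cox6a1 (8.49 and 8.47 against 8.41 and 8.33) and Cox6b1 (4.07 and 4.13 against 4.03 and 3.96) changed by -0.11 ± 0.10 and -0.10 ± 0.10 SE.

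**Figure D3:**
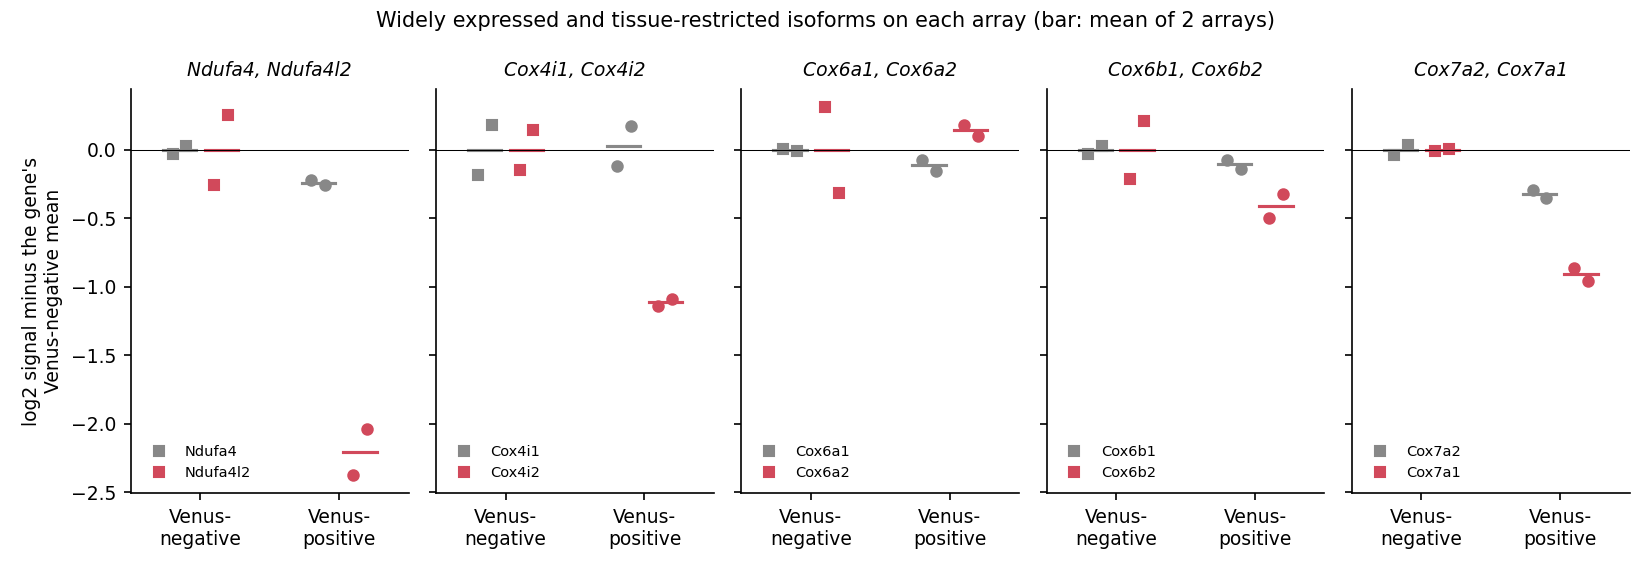
Log2 signal of 5 isoform pairs on each array (y axis), set to 0 at the gene's Venus-negative mean; grey is the widely expressed and red the tissue-restricted form, squares are Venus-negative and circles Venus-positive arrays, and bars are means of 2 arrays. Ndufa4l2, Cox4i2 and Cox7a1 drop well below their partners, whereas the arrays of Cox6a2 overlap.

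A test of isoform against partner was made for these 5 pairs on the within-array log2 ratio. The ratio changed by -1.97 for Ndufa4l2, -1.14 for Cox4i2, -0.59 for Cox7a1, -0.31 for Cox6b2 and 0.26 for Cox6a2. A two-sided exact permutation test over 2 against 2 arrays cannot go below p = 0.333, which was reached for all pairs except Cox6a2 (exact p = 1). Thus the ratio was lower on both Venus-positive arrays than on both Venus-negative arrays in 4 of the 5 pairs, without a test that could pass a threshold. No such share was computed for ratios of other genes. Ndufa4l2, Cox4i2 and Cox7a1 had been set apart by these same values, so the count adds no separate support. For Cox6b2 this rests on a near tie, with a log2 ratio to Cox6b1 of -2.8345 on Venus-negative replicate 1 and -2.837 on Venus-positive replicate 2.

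Several marker lists differed between the fractions beside these isoforms, and their part in the differences was not tested. Over all features limma called 1.36% lower and 0.769% higher, and 49.9% had a negative change. At an unadjusted p under 0.05 in limma the shares were 11.4% lower and 12.2% higher. Of 13 heart and striated muscle markers, 10 were measured, 1 was called lower and 9 were negative (median -0.94). The called gene was Myl7, an atrial myosin light chain, which was well above background on both Venus-negative arrays and on neither Venus-positive array, so that it passed the filter only through the fraction where it is high. The same holds for Nppa (-1.50 ± 0.17 SE), well above background on both Venus-negative arrays but on only 1 Venus-positive array. The positive change was that of Tnnt2 (0.89 ± 0.73 SE). The summed signal of the heart and striated muscle list, relative to the 75th percentile of the array, was 10.06 and 7.71 in Venus-negative and 4.85 and 2.76 in Venus-positive cells. The skeletal muscle factors Myod1 and Myog were not well above background on any array. A list of 12 pericyte and smooth muscle genes, cells in which Ndufa4l2 and Cox4i2 are known to be abundant, was chosen after the values had been seen. Of these, 10 were measured, 2 were called lower and 8 were negative (median -0.57), with a summed signal of 52.7 to 74.2 in Venus-negative and 35.2 to 54.1 in Venus-positive cells. The called genes were Notch3, a receptor of mural cells (-0.96 ± 0.10 SE, adjusted p = 0.0439), and Rgs5, a pericyte marker, which was well above background on both Venus-negative arrays and on neither Venus-positive array (at least 12.5-fold lower, adjusted p = 0.0272). Rgs5 thus passed the filter only through the Venus-negative fraction, which fixed the direction of its call. The pericyte channel gene Kcnj8 and the smooth muscle myosin gene Myh11 were not well above background on any array, while Higd1b, another pericyte marker, changed by 0.06 ± 0.29 SE. Abcc9, the channel partner of Kcnj8, had the opposite sign and passed the filter only through the Venus-positive arrays (adjusted p = 0.0510). Of 6 pluripotency markers 1 was called lower, Tdgf1, and 5 were negative (median -1.56), with a summed signal of 66.7 and 40.3 in Venus-negative and 13.5 and 8.83 in Venus-positive cells. The members differed widely. Dppa5a changed by -2.47 ± 0.40 SE and Pou5f1 by -2.39 ± 0.34, but Esrrb by -0.73 ± 0.56, Zfp42 by -0.33 ± 0.15 and Nanog by 0.23 ± 0.18. Of 7 proliferation markers 0 were called in limma (2 higher and 2 lower at an unadjusted p under 0.05). Changes were positive for 4, among them Cdk1 (0.91 ± 0.22 SE) and Mki67 (0.74 ± 0.13 SE). They were negative for 3, namely Mcm2 (-0.30 ± 0.10 SE), Pcna (-0.29 ± 0.10) and Mcm5 (-0.21 ± 0.13). The summed signal of this list was 208 and 194 in Venus-negative against 199.9 and 203 in Venus-positive cells. Of 5 testis and germ cell markers 4 were measured, 1 was called lower and 3 were positive (median 0.68). Of 6 blood markers 5 were measured, 0 were called and 3 were negative (median -0.08). Of 5 endoderm markers 2 were measured and 0 called, with Sox17 at 1.35 ± 0.24 SE and Foxa2 at -1.19 ± 0.27 SE.

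Genes of the response to low oxygen were considered beside Ndufa4l2 and Cox4i2 in the same way, with a list of 14 genes also chosen after the values had been seen. Of 13 measured, 2 were called lower, 0 higher and 10 were negative, at a median of -0.24. Over all features these shares were 1.36%, 0.769% and 49.9%. The called genes were Ddit4, an inhibitor of mTOR signalling (-1.18 ± 0.09 SE, adjusted p = 0.0355), and P4ha2, a collagen prolyl hydroxylase (-1.01 ± 0.10 SE, adjusted p = 0.0425). The classical targets Vegfa (-0.21 ± 0.19 SE) and Bnip3 (-0.53 ± 0.51 SE) did not pass, and Car9, a carbonic anhydrase, had a positive change (0.51 ± 0.25 SE). Car9 was dim, and well above background on both Venus-positive arrays but on only 1 Venus-negative array. It thus passed the filter only through the fraction where it is high. The summed signal of the list was 117 and 144 in Venus-negative and 74.2 and 85.6 in Venus-positive cells.

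In complex I the 7 nuclear core subunits form the conserved arm that oxidises NADH. Their log2 changes ran from -0.18 to 0.08 with a median of -0.03, and 0 were called in limma (0 at an unadjusted p under 0.05). Ndufv1, which binds NADH, was at 6.33 and 6.26 in Venus-negative and 6.31 and 6.28 in Venus-positive cells. Ndufs1, the large iron-sulfur subunit, was at 5.04 and 5.01 against 5.16 and 5.07 (change 0.08 ± 0.10 SE). At the low end Ndufs8, another iron-sulfur subunit, was at 3.66 and 3.51 against 3.43 and 3.38. All 7 intervals lay within 1.5-fold, the widest bounds being -0.48 and 0.36.

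Among the 29 accessory subunits of complex I, 21 had a negative change, at a median of -0.07. Ndufa8, an accessory subunit facing the intermembrane space, was the highest of all members. It stood at 3.24 and 3.37 in Venus-negative and 3.67 and 3.91 in Venus-positive cells, so the fractions did not overlap. Its change of 0.49 ± 0.14 SE, a factor of 1.40, did not pass (adjusted p = 0.155). In the opposite direction Ndufa7 was at 6.55 and 6.62 against 6.29 and 6.27 (-0.31 ± 0.10 SE, adjusted p = 0.185). Ndufv3, a small subunit of the NADH-binding module, was at 5.97 and 6.31 against 5.70 and 5.94 (-0.32 ± 0.18 SE, adjusted p = 0.362). Its fractions did not overlap, but only narrowly. The change was -0.49 without Venus-negative replicate 1 and -0.15 without Venus-negative replicate 2. Leaving out the first Venus-positive replicate gave -0.20, and a second probe gave -0.07. The highest positive changes after Ndufa8 were small, with 0.10 ± 0.11 SE for Ndufa3, 0.06 ± 0.10 for Ndufb5 and 0.05 ± 0.09 for Ndufb6, none of which exceeded its error.

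The assembly factors of complex I, which help to build the enzyme and leave it afterwards, included the last of the 4 genes that stood apart. Ndufaf4 was at 3.87 on both Venus-negative arrays and at 3.08 and 3.12 on the Venus-positive arrays. Its log2 change was -0.78 ± 0.09 SE, a 1.71-fold lower signal, and missed the threshold with an adjusted p of 0.0552. A second probe of Ndufaf4 showed the same direction, with levels of 2.63 and 2.72 against 1.57 and 1.74 and a change of -1.03. Ndufaf3, which acts with Ndufaf4 in the same early assembly step, was at 0.85 and 1.00 against 0.80 and 0.91 (change -0.07 ± 0.12 SE). The other factors had changes from -0.24 (Ndufaf8) to 0.06 (Ndufaf7), and 7 of the 8 factors were negative with a median of -0.12.

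Complex II differed little in any of its 4 subunits. Sdha, the flavoprotein that oxidises succinate, was at 4.81 and 4.78 in Venus-negative and 4.76 and 4.71 in Venus-positive cells. Sdhb, its iron-sulfur partner, was at 6.29 and 6.27 against 6.23 and 6.27. Sdhc and Sdhd anchor the enzyme in the membrane. Sdhc was slightly higher on both Venus-positive arrays, at 3.86 and 3.88 against 3.98 and 3.95 (change 0.09 ± 0.09 SE), while a second probe of Sdhc gave -0.09. Sdhd was at 5.42 and 5.40 against 5.32 and 5.24 (change -0.13 ± 0.10 SE). With adjusted p-values between 0.496 and 0.861, 0 of the 4 were called in limma (0 at an unadjusted p under 0.05), and all intervals lay between -0.41 and 0.36.

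In complex III all 8 members had a negative but small change, from -0.19 to -0.03. Uqcrfs1, the Rieske iron-sulfur protein, was at 4.88 and 4.92 in Venus-negative and 4.83 and 4.81 in Venus-positive cells. The core proteins Uqcrc1 and Uqcrc2 changed by -0.04 ± 0.10 and -0.05 ± 0.10 SE. Uqcr11, a small subunit at the edge of the complex, had the largest change among the representing probes (5.78 and 5.96 against 5.66 and 5.69, -0.19 ± 0.11 SE). A second probe of Uqcrq gave a larger one, -0.40, where its representing probe gave -0.16. Adjusted p-values were between 0.391 and 0.899, and 0 of 8 members passed in limma (0 at an unadjusted p under 0.05). Uqcrb, which binds near the ubiquinone site, had probes that differed: its representing probe changed by -0.03 and the others by -0.29 and 0.03.

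The 11 widely expressed subunits of complex IV had a median change of -0.10, and 9 were negative. Cox7c, a small membrane subunit, was at 6.03 and 6.01 in Venus-negative and 5.68 and 5.63 in Venus-positive cells. Both pairs of replicates were tight and did not overlap (change -0.36 ± 0.10 SE), but the adjusted p was 0.144. Other probes of Cox7c gave -0.14 and, at a level near -3.3 where the signal is dim, 0.02. Cox8a, the common form of subunit 8, was at 7.77 and 7.84 against 7.61 and 7.60 (-0.20 ± 0.10 SE), and Cox7b was at 6.69 and 6.86 against 6.66 and 6.73 (-0.08 ± 0.11 SE). Cox7a2l, a factor that joins complexes III and IV into supercomplexes, was the only widely expressed subunit of the complex with both Venus-positive arrays above both Venus-negative arrays. It was at 7.17 and 7.21 against 7.31 and 7.38 (0.16 ± 0.10 SE, adjusted p = 0.407), and its 2 further probes changed by 0.07 and 0.11.

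The ATP synthase had 17 members, of which 15 were negative, with a median change of -0.12. Of the F1 head, which forms ATP, the catalytic subunit Atp5b was at 8.23 and 8.22 in Venus-negative and 8.07 and 7.95 in Venus-positive cells. Its partner Atp5a1 was at 6.80 and 6.81 against 6.56 and 6.57, and the central stalk subunit Atp5c1 at 6.76 on both arrays against 6.53 and 6.44. These 3 subunits lay lower on both Venus-positive arrays, with changes of -0.22, -0.24 and -0.27 (SE 0.09 to 0.10, adjusted p between 0.219 and 0.305). The other head subunits Atp5d and Atp5e changed by 0.02 and 0.00.

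The 3 genes Atp5g1, Atp5g2 and Atp5g3 encode one and the same mature c subunit of the rotating membrane ring behind different import sequences, and 0 of them passed the test. Atp5g1 was at 6.85 and 6.82 against 6.79 and 6.78 (change -0.05 ± 0.09 SE). Atp5g2 was at 8.57 and 8.51 against 8.64 and 8.58 (0.07 ± 0.10 SE), with -0.03 on a second probe. Atp5g3 was at 7.23 and 7.33 against 6.957 and 7.004 (-0.30 ± 0.10 SE, adjusted p = 0.201). The 4 members of the peripheral stalk had changes from -0.24 (Atp5pb) to -0.03 (Atp5j), and the 5 small membrane subunits from -0.22 (Atp5md) to -0.01 (Atp5l). In complex V 0 members were called in limma (0 higher and 1 lower at an unadjusted p under 0.05), and 16 of the 17 intervals lay within 1.5-fold.

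Of the 93 genes, 24 had further probes, 31 in all. Among the 30 that were well above background on both arrays of a fraction, 24 had the sign of the representing probe and 28 were within 0.3 of its log2 change. The exceptions were the dim Cox7c probe and 1 of 4 further probes of Atp5l, which gave -0.45 where the representing probe gave -0.01.

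Other genes of mitochondrial metabolism were compared as lists and showed no called gene. In the lists of other assembly factors (34 measured), mobile carriers and coenzyme Q synthesis (14), other electron entry (7), mitochondrial gene expression and biogenesis (16), pyruvate dehydrogenase and citric acid cycle (17), nucleotide exchange, pores and uncoupling (10) and mitochondrial ribosomal proteins (77), limma called 0 genes higher and 0 lower. At an unadjusted p under 0.05 they held, in that order, 2, 0, 2, 2, 0, 0 and 0 higher and 1, 0, 0, 3, 0, 0 and 4 lower genes. Over all features the shares were 12.2% higher and 11.4% lower. For transcripts that the mitochondrion itself encodes, 0 of 28 listed symbols had a probe by accession, and they were not analysed here.

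Among assembly factors outside the Ndufaf family 24 of 34 changes were positive, with a median of 0.07. Cox15, needed to make haem A, was at 0.63 and 0.74 in Venus-negative and 1.13 and 1.06 in Venus-positive cells (0.41 ± 0.10 SE, adjusted p = 0.137). Cox11, which inserts copper into cytochrome c oxidase, was at 3.14 and 3.06 against 2.81 and 2.70 (-0.34 ± 0.11 SE, adjusted p = 0.175). Sdhaf4, an assembly factor of complex II, changed by 0.33 ± 0.14 SE. Cytochrome c itself (Cycs) changed by -0.23 ± 0.10 SE, with Pdss2 (0.29 ± 0.13) and Coq8a (0.25 ± 0.13) of coenzyme Q synthesis the other large values of their list (median 0.01).

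Among entry points other than complexes I and II the median was 0.09. Etfdh, which feeds electrons from fatty acid oxidation into ubiquinone, was at 1.77 and 1.81 in Venus-negative and 2.43 and 2.29 in Venus-positive cells (0.57 ± 0.11 SE, adjusted p = 0.0950). Prodh, proline dehydrogenase, changed by 0.36 ± 0.10 SE and Dhodh, of pyrimidine synthesis, by -0.22 ± 0.19. In the citric acid cycle list the median was 0.00, with Idh2 at 0.26 ± 0.09 SE, Ogdh at 0.23 ± 0.15 and Dlat at -0.21 ± 0.12. In the list of exchange and uncoupling the values with the largest size were those of Ucp2 (-0.34 ± 0.12 SE), Higd1a (-0.33 ± 0.15) and Ckmt1 (-0.14 ± 0.11).

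Of the regulators of mitochondrial gene expression, Nrf1, the factor whose sequence is frequent in the members' promoters, changed by 0.13 ± 0.12 SE. Gabpb1, a subunit of GABP, was at 3.74 and 3.59 in Venus-negative and 4.28 and 4.19 in Venus-positive cells (0.57 ± 0.11 SE, adjusted p = 0.101). The mitochondrial DNA polymerase subunits had changes of opposite sign, Polg by 0.62 ± 0.12 SE (adjusted p = 0.0936) and Polg2 by -0.45 ± 0.11 (adjusted p = 0.130). Ppargc1a, a coactivator of mitochondrial biogenesis, was not well above background on any array. The 77 mitochondrial ribosomal proteins had a median of -0.04 with 50 negative, the values of largest size being those of Mrps36 (-0.46 ± 0.09 SE), Mrps25 (-0.44 ± 0.10) and Mrpl47 (-0.29 ± 0.10).

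Glycolysis makes ATP without the chain. Of 19 genes 15 were negative (49.9% of all features), at a median of -0.38 against -0.08 for the respiratory chain members. Both Venus-positive arrays lay below both Venus-negative arrays for 14 (28.6% of all features). At the adjusted threshold 0 were called in limma (1 higher and 7 lower at an unadjusted p under 0.05, against 12.2% and 11.4% of all features). Ldhb, a lactate dehydrogenase subunit, was at 4.39 and 4.08 in Venus-negative and 3.01 and 2.66 in Venus-positive cells (-1.40 ± 0.19 SE, adjusted p = 0.0639). Pkm, pyruvate kinase, changed by -0.60 ± 0.11 SE (adjusted p = 0.0861) and Aldoc, an aldolase, by -1.33 ± 0.49 (adjusted p = 0.227). The glucose transporter Slc2a1 had a positive change (0.53 ± 0.12 SE, adjusted p = 0.114), as did Pdk1, which restrains pyruvate entry into mitochondria (0.57 ± 0.23 SE, adjusted p = 0.256).

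**Figure D4:**
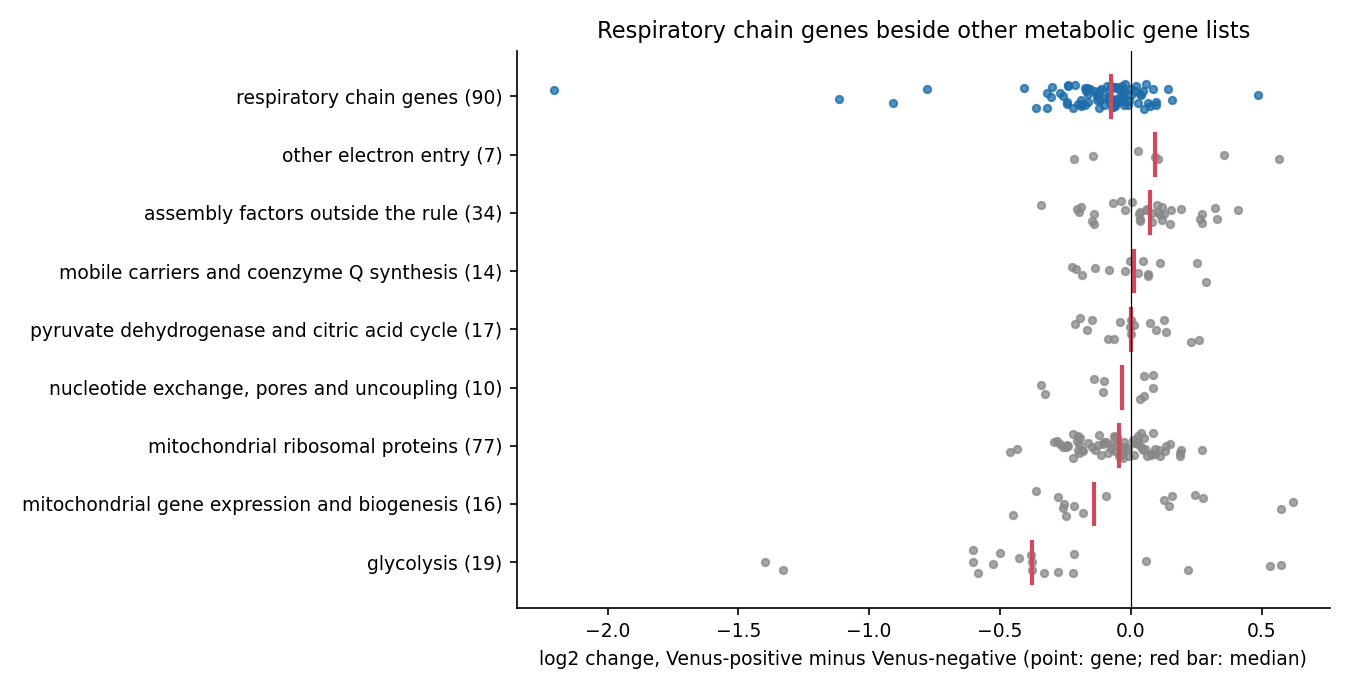
Log2 change (x axis) of each measured gene in the respiratory chain set (blue) and in the other metabolic lists (grey), with the number of genes in brackets and the median as a red bar. The medians lie between -0.14 and 0.09 except for glycolysis at -0.38.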

How the data were processed

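Total RNA of sorted cells was labelled with Cy3 and hybridised to Agilent arrays of 62976 spots. The deposited scanner files hold intensity values from Agilent Feature Extraction 10.10.1.1, background-subtracted and detrended within each array with no scaling across arrays (per the file headers). The authors' deposited value table holds the same intensity values times 1 constant per array (2.15, 2.44, 1.98 and 2.11; column medians 41.0, 42.3, 41.0 and 38.1), on a linear scale without gene centring; how the constants were set is not given in the sources used here. Control spots and 152 to 196 outlier spots per array were left out. Log2 signals were centred on each array's 75th percentile (signals of 346 to 428) and spots of a probe averaged. Accessions were matched to symbols through a RefSeq table (GRCm38.p6; 21465 of 37881 accessions). Features were 1 probe per gene plus unnamed probes, kept where 1 fraction or both had the probe well above background on each of its arrays (23544 features, 13922 of them genes). limma 3.58.1 in R 4.3.3 (lmFit, eBayes; 2 residual and 1.79 prior degrees of freedom) compared the fractions, with Benjamini-Hochberg adjustment over all features; SE is the moderated standard error. The fitting code was run on simulated data with known changes and the same spread for every feature, so that run does not bear on the p-values given here.

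Fully described members were those past the threshold, the 10 largest positive and 10 largest negative changes, isoform pairs, the Sdh genes, and the 3 largest changes of each other list; members named beyond these were chosen after their values were seen. The members and lists were chosen with earlier results of these data known. For Rgs5 the bound sets the mean of the bright arrays against, per dim array, the higher of its own signal and the lowest signal well above background. Alternatives were normexp background correction (on median signals, offset 50), median centring, quantile normalization, no background filter, the mean over a gene's probes, a trended variance prior, the replicate number as a block, the authors' table and leaving out each array. Columns of per-sample values left unused numbered 0.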

Additional observations from a re-analysis of the deposited data

How the results depend on the processing

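The number of members called lower, 2 as reported (Cox7a1 and Ndufa4l2), was 4 with normexp (with Cox4i2 and Ndufaf4), 5 with a trended variance prior (with Cox4i2, Ndufaf4 and Cox7c), 1 with quantile normalization (Cox7a1), 1 with the replicate block (Ndufa4l2), 0 with all probes kept and 0 without any 1 of the 4 arrays; it was 2 with median centring, with the mean over probes and with the authors' table. In the settings with 0, limma called 0 features of any kind, so they say nothing about these genes; with 1 array left in a fraction, that array is assumed to vary like those of the other. With all probes kept, 5 members were lower and 1 higher at an unadjusted p under 0.05 in limma. Of about 49100 features 3678 were lower and 2872 higher there. The number of all features called lower also moved with the setting. It was 321 as reported, 702 with normexp, 937 with the trended prior, 286 with quantile normalization and 539 with the replicate block, each of about 23540 features. No setting called a member higher. The log2 change of Ndufa4l2 ran from -2.46 to -1.95 over all settings, that of Cox7a1 from -0.96 to -0.84 and that of Cox4i2 from -1.26 to -0.97. With an array left out the adjusted p of Ndufa4l2 was 0.134 to 0.184.

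Median centring moved the members' median to -0.00813 and those of complexes I to V to -0.00377, 0.0227, 0.00519, -0.0438 and -0.0494, through the general shift of 0.07. The median of complex V was -0.0813 with normexp and -0.0778 with quantile normalization. With an array left out, the median was -0.168 to -0.119 for complex IV and -0.154 to -0.0782 for complex V. Some small changes turned sign: Atp5g1 (0.0164 with normexp, 0.0203 with median centring and 0.00898 with quantile normalization), Sdha (0.0102) and Sdhb (0.0352) with median centring, Sdhb (0.0200) and Cox6a1 (0.00126) with quantile normalization, and Ndufb6 (-0.00203) with the mean over probes. With an array left out, Cox4i1 ran from -0.157 to 0.210, Cox6a2 from -0.168 to 0.454, Cox7b from -0.162 to 0.00277 and Ndufaf7 from -0.0510 to 0.179. With median centring the changes of sign come from the same general shift of 0.07. For the other settings the cause was not tested.

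Same-numbered arrays share only a number and a slide row. Their deviations correlated at 0.414 over all features and at 0.641 over the members. With this replicate block 379 features were higher and 539 lower, against 181 and 321 without it. The 2 arrays per fraction limit the precision of every value.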
